A study of Mus musculus with 2 samples.

Results

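The clustered protocadherin genes of the mouse stand in 3 neighbouring groups on chromosome 18, named alpha, beta and gamma. They were taken here as the protein-coding genes on chromosome 18 whose symbols begin with Pcdha, Pcdhb or Pcdhg, which gave 57 of the 21938 protein-coding genes in the annotation. The alpha cluster held 14 of them, the beta cluster 22 and the gamma cluster 21. From the start of Pcdha1 to the end of the last gamma exon the locus spans 911.6 kb, at 18:36930285-37841873 on mm10. The assay was DNase-seq, in which the nuclease DNase I cuts open chromatin and the cuts pile up as peaks. The tissue was the whole adrenal gland of female B6CASTF1/J mice aged 36 days. This strain is the F1 hybrid of C57BL/6J and CAST/EiJ, and the alleles of its 2 parents were not separated in the values used here. The labels give 1 group of 2 libraries, biological replicates 1 and 2, with a different animal number for each but 1 shared donor record. There is no other condition, so libraries and gene sets were set side by side and no p-value was computed.

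Clustered protocadherins are cell adhesion proteins with cadherin repeats that bind their own kind on the opposing cell. Each alpha and gamma gene has its own large variable first exon with its own promoter, which is spliced to small constant exons shared by the whole cluster, while each beta gene is a single exon. In neurons most of these promoters are chosen at random in each cell, and the choice involves DNA methylation and contacts between promoters and distant enhancers that are held by CTCF and cohesin. The c-type genes (Pcdhac1, Pcdhac2, Pcdhgc3, Pcdhgc4 and Pcdhgc5) lie at the ends of their clusters and are known for expression that does not depend on this random choice. The adrenal gland has a cortex that makes steroids and a medulla of chromaffin cells, which come from the neural crest.

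The libraries held 157595 and 166206 peaks in replicates 1 and 2, and a peak's height is the signal the authors deposited for it. Heights were whole multiples of 1 step per library (0.00934 in replicate 1 and 0.00883 in replicate 2), and the number of reads behind them was not analysed here. Among genes with a promoter peak in both libraries, replicate 2 was higher for 96.4%, with a median ratio of 1.49. Of 6 markers of the adrenal cortex 5 had a peak within 1 kb of the start site used here in both libraries, and the other, Nr5a1, had heights of 6.62 and 11.7 at another annotated start site. Of 10 chromaffin markers 6 and 7 had a promoter peak, and Th, which had none at the start site used, reached 0.738 and 0.989 at another start site. Markers of endothelium (5 and 6 of 6), Schwann and sustentacular cells (2 and 3 of 7) and central neurons (4 of 6 in each library) were also open in part, and Sox10, S100b and Cdh19 had no peak at the start site used. The share of any of these cell types in the values below was not tested.

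As a whole family, fewer clustered protocadherin promoters were open than promoters of genes at large, and those that were open had low peaks. A promoter peak here is a peak with any part within 1 kb of the start site of the variable exon. Replicate 1 had one at 22 of the 57 genes (38.6%), where all protein-coding genes gave 66.2%. Replicate 2 had one at 31 (54.4%), against 67.2% of all genes. Both libraries had a peak at 21 genes (36.8%, against 65.1%), at least 1 library at 32 (against 68.3%), and 25 genes had none in either. The median promoter height of the 57 genes was 0 in replicate 1 and 0.424 in replicate 2, and the median over all protein-coding genes was 2.45 and 3.65. Over genes with a promoter peak alone, the medians were 0.808 and 0.883 for clustered protocadherins and 6.91 and 10.2 for all genes. In a whole gland a promoter open in few cells and one weakly open in many cells cannot be told apart. A position at a false discovery rate of 0.05 or less was present in both libraries at 22 genes (against 65.7% of all genes), and one of 0.001 or less at 13 (against 61.8%). On the shorter, stricter peak list 11 of the 57 genes had a peak in both libraries, against 61.3% of all genes.

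**Figure D1:**
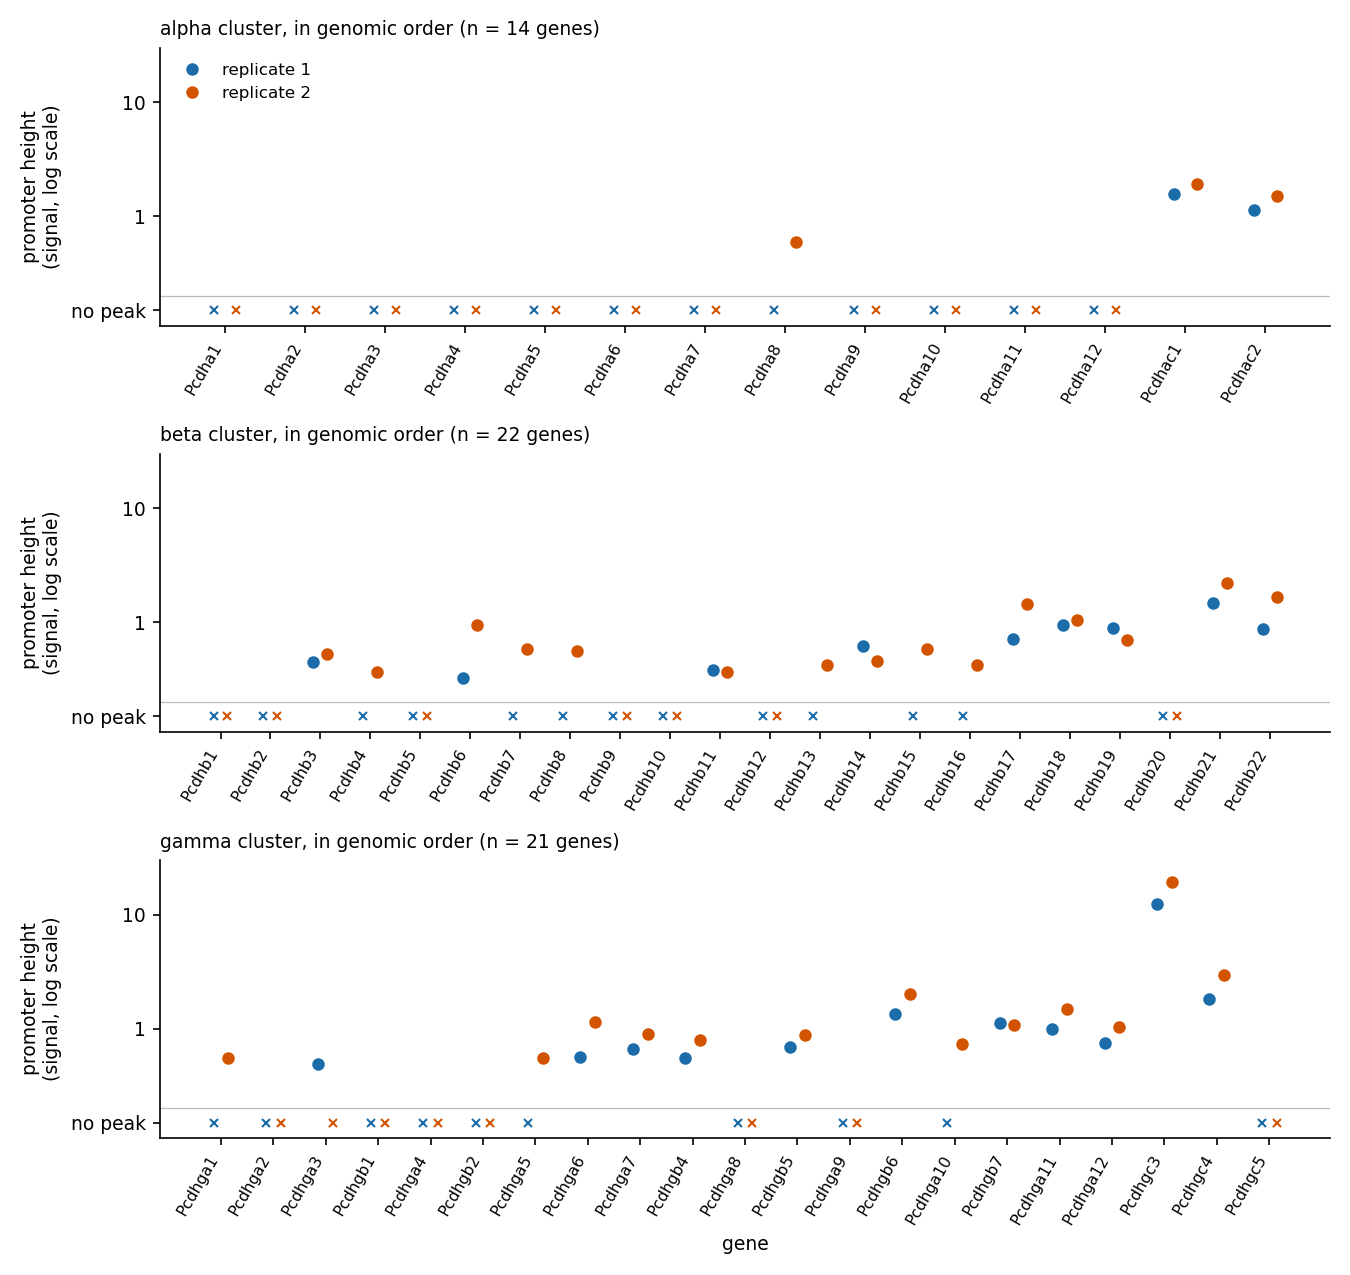
Promoter height of every clustered protocadherin gene (vertical axis, authors' signal, log scale) in genomic order within its cluster, with a point for each library and a cross at the bottom where a gene had no promoter peak. Pcdhgc3 stands far above the rest at 12.4 and 19.1, and 11 of the 12 alpha genes other than the c-type ones have no peak in either library.

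The c-type genes included the tallest promoters. Pcdhgc3, the first c-type gene of the gamma cluster, had a promoter height of 12.4 in replicate 1 and 19.1 in replicate 2, at 18:37806201-37806440. In replicate 1 this peak was taller than 97.8% of all peaks of the library, and the promoter stood above those of 84.8% and 86.1% of protein-coding genes in replicates 1 and 2. Pcdhgc3 was the only member above the median of all protein-coding genes in either library. Its neighbour Pcdhgc4 reached 1.82 and 2.93, from separate peaks on each side of its start site. The peak at 18:37814601-37814760 had heights of 1.74 and 2.93, and that at 18:37815261-37815460 had 1.82 and 2.62, so that the order of the pair differed between the libraries. Pcdhgc5, the last variable exon of the gamma cluster, had no peak in either library. In the alpha cluster Pcdhac1 reached 1.58 and 1.92 at 18:37089901-37090080. Pcdhac2 reached 1.13 and 1.49 at 18:37143781-37144000, with its centre 387.5 bp inside the variable exon in replicate 1. In both libraries 4 of the 5 c-type genes were thus open, against 65.1% of all protein-coding genes. In each library the lowest of the 4 was Pcdhac2.

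The alternate alpha genes were nearly without signal. None of the 12 had an open promoter in replicate 1, and replicate 2 had a peak at Pcdha8 alone, with a height of 0.591 and its centre 519.5 bp inside the exon. Across the 159.7 kb from the start of Pcdha1 to Pcdhac1, replicate 1 had 0 peaks, 0 footprints and 0 bp at a false discovery rate of 0.05 or less. Replicate 2 had 1 peak, 3 footprints and 193 bp there, all of them at Pcdha8. Pcdha8 is also one of the members in which reads are hardest to place: 77.5% of the 32-base words around its start site occur once in the genome, against a median of 94.0% over the 57 genes. Pcdha7 had the lowest share of all, 72.6%, and no peak. With the c-type genes counted in, the alpha cluster had 2 of 14 promoters open in replicate 1 and 3 in replicate 2. These were 14.3% and 21.4%, against 66.2% and 67.2% of all protein-coding genes.

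The beta cluster had open promoters at 9 of its 22 genes in replicate 1 and at 15 in replicate 2, and all 9 were among the 15. This was 40.9% of the cluster in replicate 1, below the 66.2% of all protein-coding genes, and 68.2% in replicate 2, close to their 67.2%. In both libraries together it was 40.9%, against 65.1%. The tallest was Pcdhb21, with 1.47 in replicate 1 and 2.22 in replicate 2, at 18:37513501-37513660. Pcdhb22, the last gene of the cluster, had 0.869 and 1.69, in a peak just upstream of a second annotated start site of that gene. Pcdhb17 had 0.710 and 1.44. These 3 genes were higher in replicate 2, whereas Pcdhb18 had similar values of 0.953 and 1.06 and Pcdhb19 was lower there, 0.888 against 0.697. The 4 other beta genes open in both libraries (Pcdhb3, Pcdhb6, Pcdhb11 and Pcdhb14) lay between 0.327 and 0.953. Pcdhb4, Pcdhb7, Pcdhb8, Pcdhb13, Pcdhb15 and Pcdhb16 had a peak in replicate 2 alone, and Pcdhb1, Pcdhb2, Pcdhb5, Pcdhb9, Pcdhb10, Pcdhb12 and Pcdhb20 in neither. On the shorter peak list 5 beta genes were open in both libraries, against 61.3% of all genes.

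The open beta genes lay more often toward the gamma end of the cluster. Among Pcdhb1 to Pcdhb11, replicate 1 had peaks at 3 genes and replicate 2 at 6 (27.3% and 54.5%). Among Pcdhb12 to Pcdhb22, replicate 1 had them at 6 genes and replicate 2 at 9 (54.5% and 81.8%). All protein-coding genes gave 66.2% and 67.2%. The heights reached 0.449 and 0.953 in the first 11 genes and 1.47 and 2.22 in the last 11. Over genes with a peak alone, the medians were 0.383 and 0.543 in the first 11. In the last 11 they were 0.878 and 0.697, so the groups were closer in replicate 2. Across the 22 genes, the rank correlation of position with height was 0.54 in replicate 1 and 0.52 in replicate 2, a description over genes of 1 library that share its depth. The share of unique 32-base words moves with position too: its median was 87.3% in the first 11 genes and 100% in the last 11, and its own rank correlation with height was 0.52 and 0.37. Its part in the difference was not tested.

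Of the 18 gamma genes of the A and B types, 9 were open in replicate 1, 11 in replicate 2 and 8 in both. These were 50%, 61.1% and 44.4%, against 66.2%, 67.2% and 65.1% of all protein-coding genes. Pcdhgb6 was the tallest, with 1.35 in replicate 1 and 1.99 in replicate 2, at 18:37741941-37742100. Pcdhga11 followed with 1.00 and 1.48, and Pcdhgb7 with 1.12 and 1.09. With Pcdhgc3 and Pcdhgc4 these were the 5 tallest of the gamma cluster by the mean of the libraries, and of the 5 only Pcdhgb7 was not higher in replicate 2. The 5 others open in both libraries, Pcdhga6, Pcdhga7, Pcdhgb4, Pcdhgb5 and Pcdhga12, lay between 0.551 and 1.14. Pcdhga1, Pcdhga5 and Pcdhga10 had a peak in replicate 2 alone and Pcdhga3 in replicate 1 alone. No peak was found in either library at Pcdhga2, Pcdhgb1, Pcdhga4, Pcdhgb2, Pcdhga8 or Pcdhga9. On the shorter list 4 gamma genes, c-type genes included, were open in both libraries, against 61.3% of all genes.

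The open gamma A and B genes lay more often toward the constant exons. Of the first 9 of these genes, 3 were open in replicate 1 and 4 in replicate 2 (33.3% and 44.4%). Of the last 9, 6 and 7 were open (66.7% and 77.8%), close to or above the 66.2% and 67.2% of all protein-coding genes. In at least 1 library 5 of the first 9 and 7 of the last 9 were open, against 68.3% of all genes. The median height was 0.691 and 0.883 in the last 9, against 0 in both libraries for the first 9. Over all genes it was 2.45 and 3.65. The rank correlation of position with height was 0.62 in replicate 1 and 0.64 in replicate 2 across the 18 genes. In this cluster the share of unique 32-base words had a rank correlation of -0.37 and -0.32 with height. Pcdhgb8, which the annotation calls a polymorphic pseudogene and which is therefore no member, lies among the last gamma B genes and had a peak of 1.28 and 1.22.

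Genes called in a single library had low peaks. The 10 members with a peak in replicate 2 alone had heights between 0.371 and 0.733, which are 42 and 83 steps, and the tallest of them stood above 38.0% of the peaks of that library. The only member called in replicate 1 alone, Pcdhga3, had 0.486, or 52 steps, above 22.05% of the peaks. Among the 21 members called in both libraries the median was 0.869 in replicate 1 and 1.09 in replicate 2. Of these 21, 17 were higher in replicate 2, with a median ratio of 1.38. Other genes with a mean height under 2 had a ratio of 1.35, a shift close to that of the members.

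Where a member was open, the open stretch was short and close to the start site. In the members other than the c-type genes the peak centre had a median position of -37.5 bp in replicate 1 and -39.5 bp in replicate 2, counted from the start site, with negative values upstream. Peaks centred within the 200 bp upstream made up 14 of 18 in replicate 1 and 20 of 27 in replicate 2, whereas over all other protein-coding genes they made up 54.5% and 53.3%. The median width was 154 bp and 140 bp, against 200 bp for other genes in each library. The peaks of these members were also lower, with medians of 0.701 and 0.733, against 6.91 and 10.2 over all genes with a peak. Widths of peaks of like height were not compared. Most of the exceptions were centred over 300 bp inside the variable exon, as at Pcdhga6 (426 and 412 bp), Pcdhga12 (329 and 322 bp) and, in replicate 2, Pcdhga10 (398 bp). In replicate 2 Pcdhga5 had peaks at both places, with 0.450 at its start and 0.547 further inside.

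**Figure D2:**
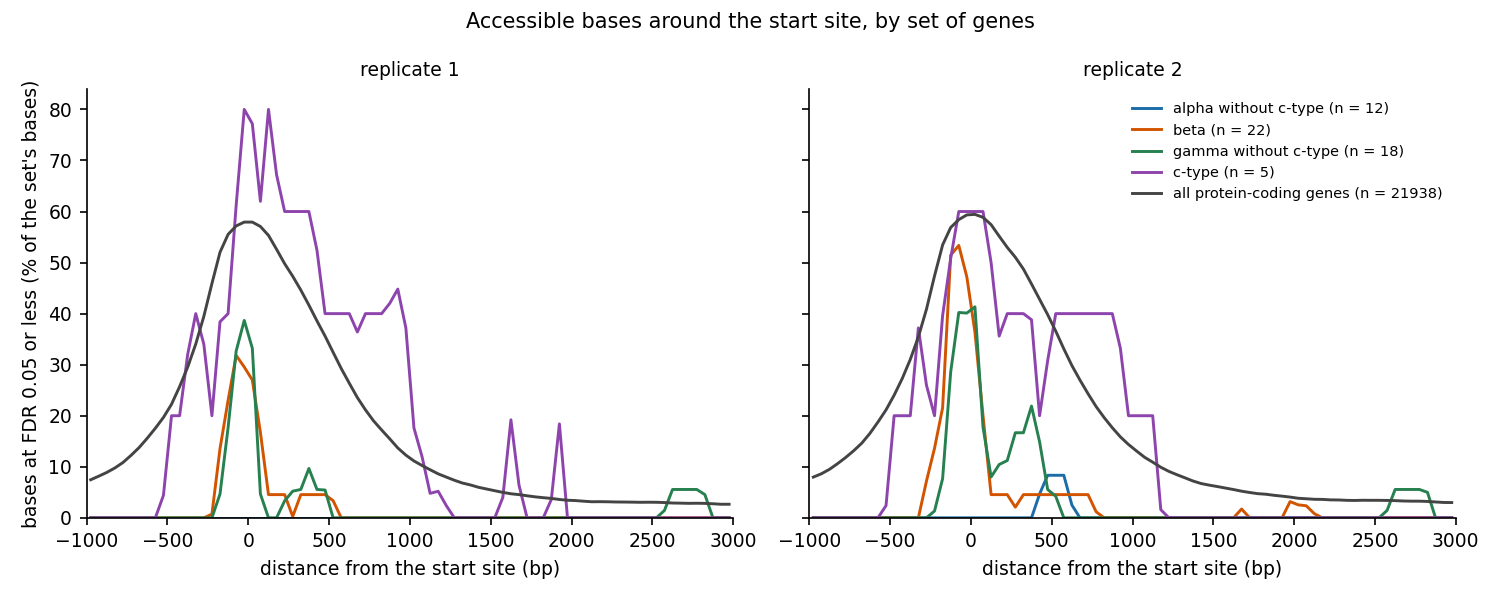
Share of bases at a false discovery rate of 0.05 or less (vertical axis, % of the bases of a set) against distance from the start site (horizontal axis, bp, 50 bp bins), for the sets of clustered protocadherins and for all 21938 protein-coding genes, in each library. In replicate 1 the beta and gamma curves peak at 31.8% and 38.7% just upstream of the start and fall to 0 within 300 bp on the upstream side, while the curve of all genes is broader and reaches 57.9%.

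The base composition of these promoters differed from that of most genes, and the share of open genes they are set beside changes with it. In the 300 bp from 250 bp before to 50 bp after the start site, the median GC content of the members was 39.7%, against 56% over all genes, while the median ratio of observed to expected CpG was 0.521, against 0.556. A ratio of at least 0.6, called CpG-rich here, was reached by 22 members. Of these, 6 were open in replicate 1 and 10 in replicate 2, where all CpG-rich promoters gave 96.5% and 97%. Both libraries had a peak at 6 of them, against 96.1% of all CpG-rich promoters. Of the 35 CpG-poor members 15 were open in both, and 37.8% of all CpG-poor promoters were. A GC content under 45% was found in 43 members, and 15 of them were open in both libraries, a share of 34.9% against 14.4% over all promoters of such GC content. With both features together, CpG-rich and under 45% GC, 4 of 19 members were open in both, against 68.3% of the 218 genes of that kind, members included. The GC limit was chosen after the members' GC content had been seen. The share of members open in both libraries, 36.8%, thus lay below that of CpG-rich genes and of all genes. It was close to the 37.8% of CpG-poor genes and above the share of GC-poor genes. The GC-poor sets differ in CpG, since 44.2% of the GC-poor members but 5.09% of the other GC-poor genes were CpG-rich. Among promoters both GC-poor and CpG-rich the order was reversed, with 21.1% of members open in both libraries against 72.9% of the 199 other genes. Another family in clusters, the olfactory receptors, had a promoter peak at 31 of 1135 genes (2.73%) in each library. Over all CpG-poor genes 39.7% and 41.0% had one. The olfactory receptors are unlike the members in composition, with 0 CpG-rich promoters and a median CpG ratio of 0.0878.

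**Figure D3:**
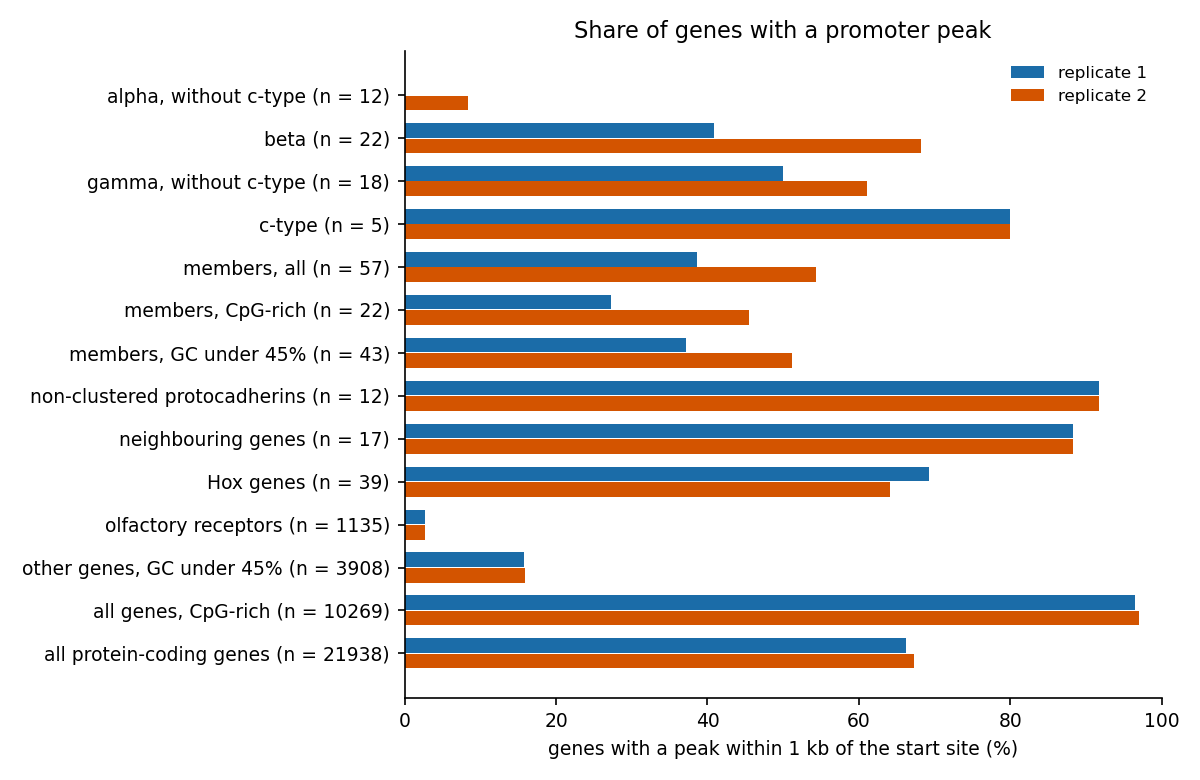
Share of genes with a promoter peak (horizontal axis, %, from 0) in replicate 1 and replicate 2, for the clustered protocadherins, their subsets and other sets, with the number of genes in each. In replicate 1 beta and gamma genes lie between GC-poor genes and all protein-coding genes, in replicate 2 gamma genes still do (61.1%) while beta genes (68.2%) lie just above all genes (67.2%), and the alternate alpha genes lie at 0 and 8.33%.

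The conserved promoter element of these genes has CGCT at its core. Searched on both strands of the same 300 bp, CGCT was found in 55 of the 57 members, against 68.4% of all promoters, and on the strand of the gene in 50, against 52.5%. All 25 members with no peak in either library held it, as did 19 of the 21 open in both. Those without it were Pcdhb22 and Pcdhga12. In replicate 1 their peaks were centred 429.5 and 328.5 bp inside the exon, outside the 300 bp searched. The core of the CTCF motif, searched on both strands, was found in 4 member promoters (7.02%), against 9.82% of all promoters. A match to these letters describes the sequence and is no site of binding, and a match of one motif can overlap a match of the other.

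Footprints, short stretches inside open chromatin that are protected from cutting, were deposited as lists with a constant p-value of 0.01 and so were counted only. Within 1 kb of the start site a footprint was listed for 19 members in replicate 1 and 29 in replicate 2, where 63.6% and 64.6% of all genes had one. Both libraries listed one for 17 members, against 62.2% of all genes. Pcdhgc3 had 10 footprints in each library, the most of any member. Outside Pcdhgc3 the member promoters held 40 footprints in replicate 1 and 55 in replicate 2. Of the member footprints of replicate 1, 56% overlapped a footprint of replicate 2, and of those of replicate 2 40% overlapped one of replicate 1. Over all footprints of the genome these shares were 54.1% and 52.7%.

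Seen along the locus, the peaks were as dense as elsewhere on the chromosome but unevenly spread. The locus held 51 peaks in replicate 1 and 57 in replicate 2, or 5.59 and 6.25 per 100 kb, and chromosome 18 as a whole had 5.85 and 6.02. The gamma cluster had 13.9 and 12.2 peaks per 100 kb, the beta cluster 3.47 and 6.55, and the alpha cluster 3.89 and 3.11. Promoter windows held 27 and 36 of the peaks, and the space between the clusters 7 and 9. Of the 51 peaks of replicate 1, 41 overlapped a peak of replicate 2 (80.4%), and these were 71.9% of the 57 peaks of replicate 2. The tallest peak seen in a single library had a height of 0.757.

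**Figure D4:**
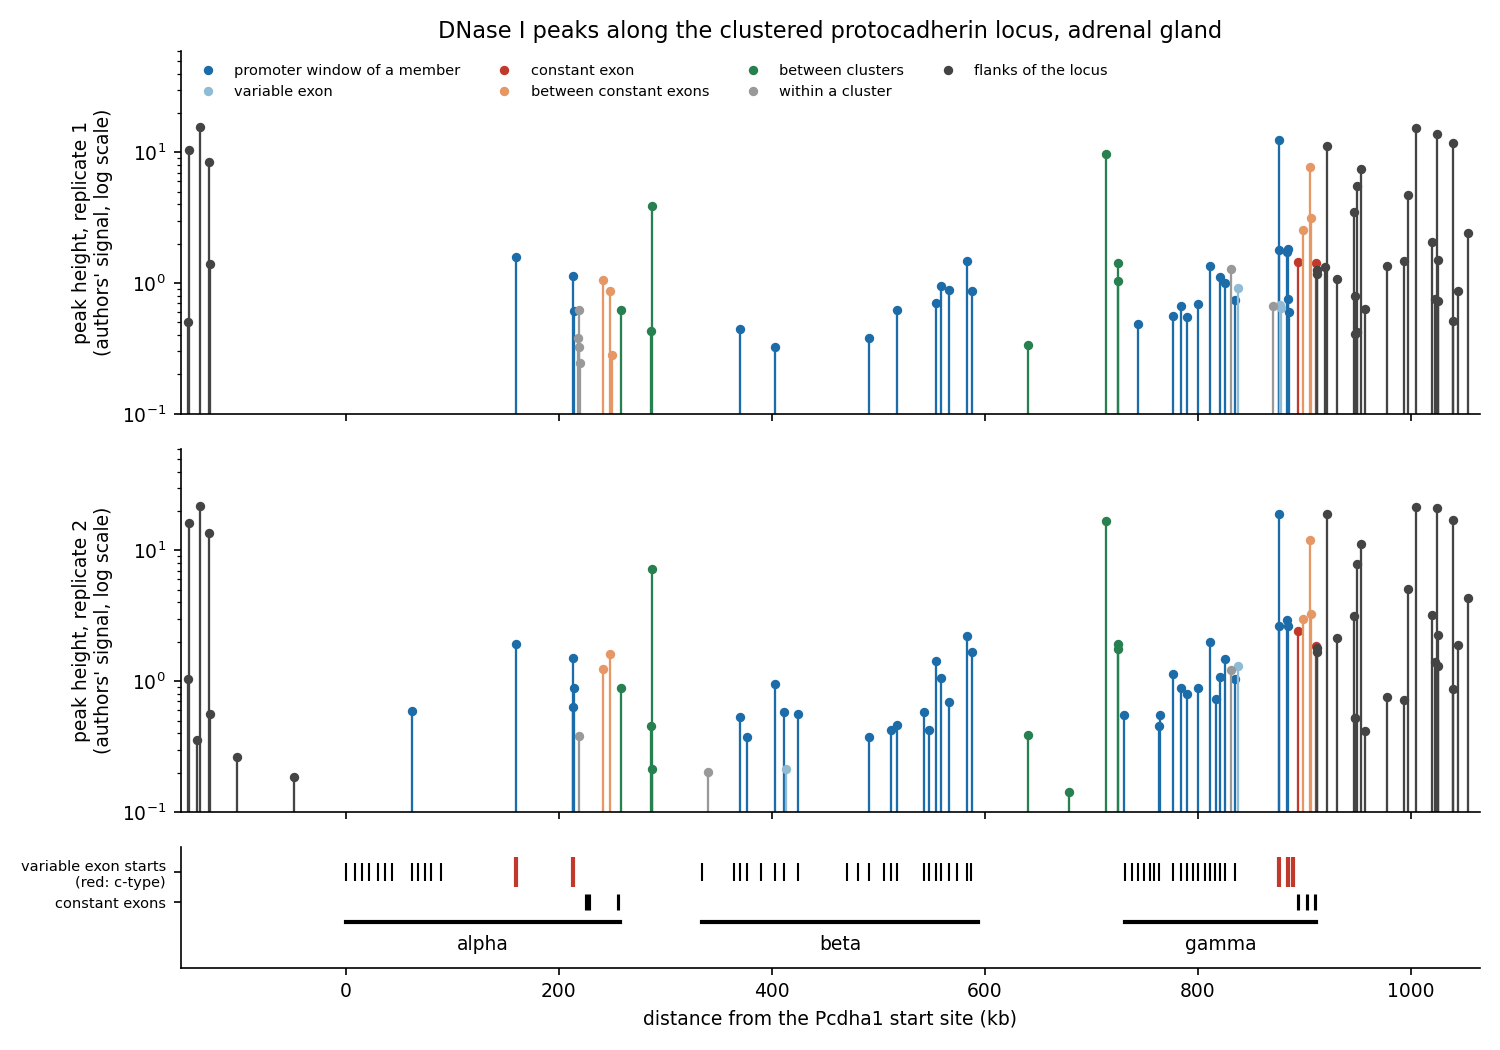
Peak heights (vertical axes, authors' signal, log scale) against distance from the Pcdha1 start site (horizontal axis, kb) in replicate 1 (top) and replicate 2 (middle), with the variable exon starts, the constant exons and the extent of each cluster below. The alpha variable exons before Pcdhac1 are empty but for 1 peak in replicate 2, and tall peaks stand between the alpha and beta clusters, at Pcdhgc3, among the gamma constant exons and beyond the locus.

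Several of the tallest peaks of the locus lay outside the variable promoters. Between the alpha and beta clusters a peak at 18:37218281-37218460 had a height of 3.88 in replicate 1 and 7.27 in replicate 2, with 4 footprints in each library. It lay 30.7 kb beyond the last alpha constant exon and was taller than 88.7% and 91.6% of all peaks, and taller than every promoter peak of the alpha and beta clusters in both libraries. An enhancer of the alpha cluster is known downstream of that exon. The 3 other peaks of this gap were low, from 0.212 to 0.891. The gap between the beta and gamma clusters held the promoter of Taf7, a general transcription factor gene, with 9.80 and 16.9. It also held a pair of peaks near the start of the noncoding gene 3222401L13Rik, the taller with 1.43 and 1.93.

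No peak was centred on any of the 3 alpha constant exons, but the intron before the last of them had peaks of 1.06 and 1.24 at 18:37172301-37172460 and of 0.878 and 1.62 at 18:37178361-37178660. Both lie near start sites of noncoding genes that the annotation places there, Gm38097 and Gm10544. The gamma constant exons were more open. The first, at 18:37825021-37825079, lay under a peak of 1.46 and 2.42, and the third under one of 1.43 and 1.86. Between them the introns held peaks of 2.57 and 2.97, of 3.16 and 3.28 and, the tallest, at 18:37835401-37835700, of 7.67 and 12.03.

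Beyond the gamma cluster, within the gene Diaph1, lies a region where enhancers of the beta and gamma genes are known. A peak at 18:37852181-37852400, 10.4 kb past the last gamma constant exon, had heights of 11.3 and 19.0, with 6 footprints in each library. Further peaks lay at 38.4 kb (5.56 and 7.85) and 41.8 kb (7.49 and 11.1). The promoters of Diaph1 (15.3 and 21.6), Hdac3 (13.8 and 21.1) and Fchsd1 (11.8 and 17.2) followed within 150 kb. The 150 kb downstream of the locus had 16.7 and 14.7 peaks per 100 kb, and the 150 kb upstream of it 3.33 and 6.00.

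Matches to the CTCF core had a strand pattern along the locus. In the 201 bp around the peak centre the core was found at 12.5% of all peaks of replicate 1 and 12.7% of replicate 2, and at 5 of the 51 and 8 of the 57 peaks of the locus. In promoter windows of members the matches were on the forward strand, the strand of the genes, at 2 peaks in replicate 1 (Pcdhac1 and Pcdhga6) and 5 in replicate 2, where Pcdha8, Pcdhga5 and Pcdhga10 joined them; Pcdhga10 had a reverse match as well. At the other peaks of the locus the matches of both libraries were on the reverse strand, at 3 peaks in each. The same held for the 4 matches in each library within 50 kb beyond the locus, which include the peak of 11.3 and 19.0. Farther out, up to 150 kb beyond the locus, all matches of both libraries were on the forward strand instead. Their peaks lay at 66.4, 108.2, 127.9 and 142.6 kb, so the pattern beyond the locus depends on the 50 kb limit. The strand is read from 1 genome sequence, so where the libraries share a peak they share its strand. The strand of matches over all peaks was not counted. The tall peak between the alpha and beta clusters had no match, and a low peak shortly before it, at 18:37217361-37217560 with 0.430 and 0.450, had one on the reverse strand. These peaks were singled out after their values had been seen.

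Genes related to the clustered protocadherins by family or function were mostly open. Of 12 protocadherin genes outside the clusters 11 had a promoter peak in each library, with a median height of 3.09 and 5.32. Over all protein-coding genes 66.2% and 67.2% had one, with a median of 2.45 and 3.65. Pcdh17 was the tallest of them, with 9.68 and 11.3, Pcdh20 the lowest of those open, with 0.252 and 0.424, and Pcdh11x had no peak at the start site used, with 0.327 and 0.450 at another. All 16 genes of promoter choice and silencing were open in both libraries, with a median of 9.40 and 14.1. All 16 have CpG-rich promoters, and over all CpG-rich genes 96.1% were open in both libraries, with medians of 8.86 and 13.3, so that the list lay close to its background. Smc3, a cohesin subunit, reached 19.8 and 27.0, and Dnmt3b, a DNA methyltransferase, was the lowest with 2.21 and 2.98. Of 11 genes for binding partners, signalling and cleavage of protocadherins 10 were open in both libraries, against 65.1% of all genes. CpG-rich promoters made up 72.7% of this list, so its background too is higher than that of all genes. By the mean of the libraries the open genes ran from Ret, a receptor kinase, with 1.96 and 2.62, to Adam10, a protease that cuts these proteins, with 22.6 and 32.9. Ptk2b had no peak.

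The genes around the locus were also open. Of the 17 neighbours, whose start sites lie within the locus or 250 kb of it, 15 had a promoter peak in each library, with a median height of 9.80 and 16.2. Over all protein-coding genes 66.2% and 67.2% had one. The neighbours are not all separate promoters. Hars and Hars2, Hdac3 and Rell2, and Ik and Ndufa2 start close together and had the same heights, so a shared peak was counted for each gene of a pair. CpG-rich promoters made up 70.6% of the neighbours, and 96.1% of all CpG-rich promoters were open in both libraries. Zmat2, on the alpha side, was the tallest with 15.5 and 21.9, Arap3 the lowest of those open by the mean of the libraries with 1.35 and 1.62, and Slc25a2 and E230025N22Rik had none. The low values of the alpha and beta promoters were thus flanked by tall promoters on each side. The 39 Hox genes, also arranged in clusters, had a peak at the start site used at 27 genes in replicate 1 and at 25 in replicate 2. These shares, 69.2% and 64.1%, were close to those of all genes. CpG-rich promoters made up 74.4% of the Hox genes, however, so their background too is higher than that of all genes. In both libraries 64.1% of the Hox genes had a peak, below the 96.1% of all CpG-rich promoters. The median height of the Hox genes was 2.13 and 3.24.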

How the data were processed

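DNase-seq of 2 adrenal gland libraries was used as deposited. Per the labels all files are on mm10, and a text deposited beside them says that each library was processed on its own. Of the aligner and peak caller, the name, version and threshold are not given in the sources used. The peak heights are a signal that the authors scaled before deposit. The deposited false discovery rates (q-values, by position) are listed only under 0.05, and the deposited footprint p-value is the constant 0.01.

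For each library the longer of its 2 peak lists was used. The promoter height of a gene is its tallest peak with any part within 1 kb of the first exon's start in its longest coding transcript (GENCODE M21 basic set, GRCm38.p6), or 0. The annotation gives the symbol Pcdha11 to 2 genes, of which 1 is Pcdha10 by its RefSeq start. Composition, motifs and unique 32-base words came from the same genome. Peaks were shared if they overlapped by at least 1 bp. The scripts were tested on simulated data. Python 3.11.15, numpy 2.4.6, pandas 2.3.3, numba 0.67.0 and matplotlib 3.10.9 were used.

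The members, gene lists and alternatives were chosen with earlier results of these data known. Named are the 5 tallest genes of each cluster, the c-type genes, those open in 1 library, the 8 tallest peaks at constant exons, between clusters and downstream, and the tallest and lowest gene of each list. Other sites were named after their values were seen. Sequence of this chromosome is not shown. With 1 group no test between conditions was possible, and the replicate spread may be technical. The depth is not known, so no counting interval was given.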

Additional observations from a re-analysis of the deposited data

How the results depend on the processing

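No paired analysis was possible because there is 1 group. Of 57 values under alternatives 41 stayed within 1.5 times the reported count or within 1 SD of the replicates, and 16 moved. This tally is no measure of stability. Where a value judged by the SD is the mean of the 2 libraries, leaving 1 out always stays within 1 SD. The median promoter height of the members fell from 0.212 to 0 on the shorter list and still counted as unmoved. The number of members open in both libraries (21) was the same for windows of 500 bp or 2 kb, for peak centres, for every annotated start site and for members with at least 80% unique 32-base words. It fell to 11 on the shorter peak list and to 13 with a position at a false discovery rate of 0.001 or less as the call. On the shorter list the beta and gamma counts (9 and 10) became 5 and 4, promoter peaks of the locus 18.5 instead of 31.5 (mean of the libraries), variable exon peaks 1 instead of 2.5, and peaks per 100 kb 3.78 instead of 5.92. With a library left out, the beta count ranged from 9 to 15 and the members with a footprint (17) from 19 to 29. The share of all genes open in both libraries (65.1%) was 61.3% on the shorter list, 62.8% for 500 bp, 68.0% for 2 kb, 96.1% for CpG-rich promoters, 66.2% to 67.2% with a library left out and, in an alternative chosen after seeing the data, 14.4% for promoters under 45% GC. The members called in 1 library had heights of at most 0.733, and those called in both had heights down to 0.327. The number of reads is not known, and its part in these calls was not tested.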
